A study of Mus musculus with 6 samples.

Results

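The genes described here encode the complement components with their receptors and membrane regulators, the clotting factors, the kininogens, the protein C pathway, the plasminogen activators, and the plasma proteins alpha-2-macroglobulin and haptoglobin. The 52 members were taken by gene symbol, without the serpin inhibitors, and all 52 were found among the 23420 genes measured.

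RNA of whole uteri was sequenced on pseudopregnancy day 4.5, after females had been mated with vasectomised males. *Foxo1f/f* mice, which carry floxed *Foxo1* alleles and no Cre by their genotype, were compared with *Foxo1d/d* mice, which are *PgrCre/+ Foxo1f/f*. All females were 8 weeks old, and of the C57BL/6J strain. Their diet is labelled standard chow, while the study's methods give a diet free of soy protein. Each genotype was represented by 3 libraries, and each library was a pool of 2 mice. The floxed segment is the second main coding exon of *Foxo1*. *PgrCre* recombines in PGR-expressing cells, which in the uterus include epithelium, stroma and muscle, and also in the pituitary, mammary gland and preovulatory granulosa cells, so the deletion is not limited to 1 uterine cell type. Cre and the *Pgr* allele that carries it were present in *Foxo1d/d* mice only.

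Complement is a chain of plasma proteases that is started by antibodies and C1q, by lectins or by the alternative pathway, converges on C3 and ends in a membrane pore. Coagulation is a parallel chain in which tissue factor or the contact system leads to thrombin and fibrin, and the plasminogen activators later dissolve the clot. Most of these proteins reach the blood from the liver, while the uterus makes some of them itself, among them C3 in the epithelium under oestrogen and tissue factor in the endometrial stroma.

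The values are the mean counts of sequenced reads per gene over the 3 libraries of a genotype, which on average held 26125014 counts in *Foxo1f/f* against 27257963 in *Foxo1d/d*. Values of single libraries were not analysed here, so no spread between pools can be given and no difference below was tested against it. Folds are ratios of mean counts after division by these totals. The parentheses after a fold give its 95% counting interval, from the exact Clopper-Pearson method on the counts summed over a genotype, which covers counting error only. Where a pair of counts or levels of a gene stands without the names of the genotypes, the first is that of *Foxo1f/f* and the other that of *Foxo1d/d*. A gene was counted as higher or lower when its mean count over both genotypes was at least 10 and its ratio, after a pseudocount of 1 was added to both means, was at least 1.5-fold. Levels are compared between genes as counts per 1000000 counts (CPM) divided by the kilobases of exon, called the level per length. Sums over lists are in CPM that is not divided by length. The gene said to lead a list has the largest CPM of that sum in *Foxo1f/f*, which need not be the highest level per length.

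*Foxo1* itself averaged 3941 counts in *Foxo1f/f* against 1456 in *Foxo1d/d* uteri, which was 2.82-fold lower (2.73 to 2.93). The targeted transcript was thus lower and still present in *Foxo1d/d* uteri. The count covers the whole gene, so RNA that lacks the deleted exon is counted with the intact RNA. In whole tissue, fewer cells of a type and less RNA per cell cannot be told apart, for *Foxo1* and for every gene below.

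Of the 52 members, 44 reached a mean count of 10. Among these, 4 were at least 1.5-fold higher in *Foxo1d/d*, beside 5.45% of the 15702 genes that reached this count, and 8 were at least 1.5-fold lower, beside 3.51% of those genes. The higher members were *C2*, *F10*, *A2m* and *Hp*. The lower members were *Hc*, *C7*, *Cd55*, *F3*, *Kng1*, *Kng2*, *Fga* and *Fgg*. At 2-fold, 2 members were higher, beside 2.01% of the 15702 genes, and 5 were lower, beside 1.40%. The median log2 ratio of the 44 members was -0.03, beside 0.02 over the 15702 genes, so the typical member had nearly the same value in both genotypes. *Kng1*, *Fga*, *Fgg* and *F10* reached the count minimum only through the genotype in which they were higher. All members together took 0.348% of the counts in *Foxo1f/f* against 0.354% in *Foxo1d/d*.

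**Figure D1:**
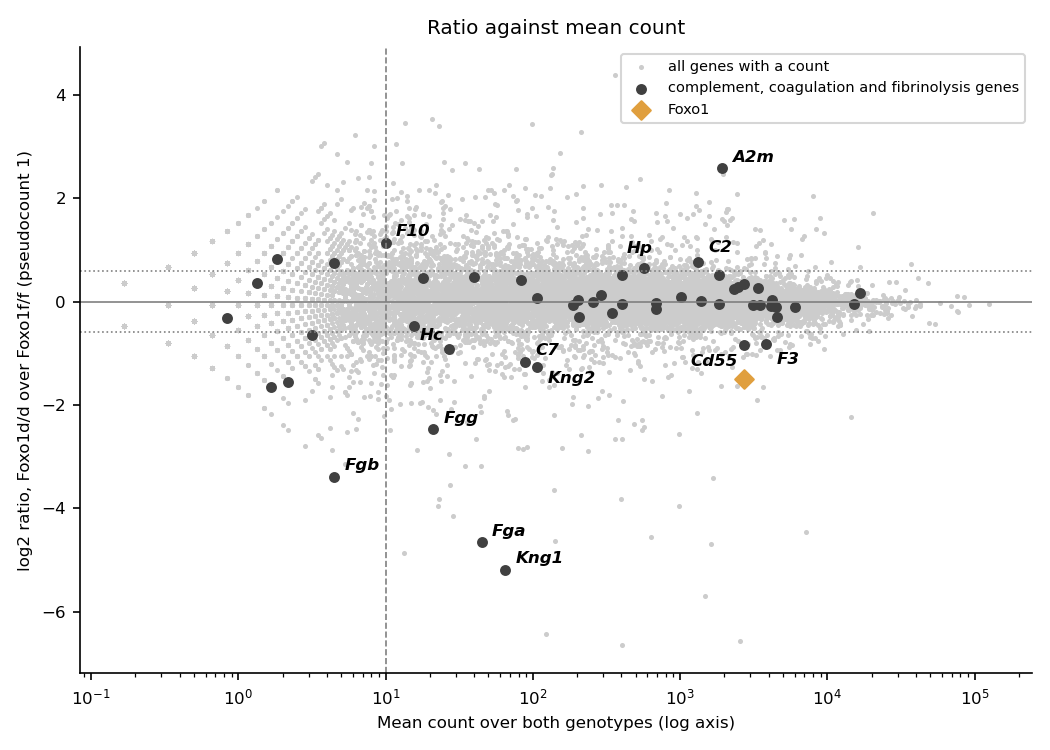
Log2 ratio, *Foxo1d/d* over *Foxo1f/f* (vertical axis, pseudocount of 1) against the mean count over both genotypes (horizontal log axis) for every gene with a count, with the members in dark grey and *Foxo1* as a diamond. The dashed line marks a mean count of 10 and the dotted lines 1.5-fold; *Kng1* and *Fga* lie far below the cloud of genes with similar counts and *A2m* lies above it.

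The C1 complex begins the classical pathway. Its recognition part, C1q, is built from the chains of *C1qa*, *C1qb* and *C1qc*, which lie next to each other on chromosome 4 and are known products of macrophages. *C1qa* averaged 2355 counts in *Foxo1f/f* against 3095 in *Foxo1d/d* (log2 ratio 0.33), *C1qb* 2171 and 2757 (0.28), and *C1qc* 2085 and 2578 (0.25). The chains thus differed alike, all slightly higher in *Foxo1d/d* and short of 1.5-fold. The 7 flanking genes that reached the count minimum had log2 ratios from -0.13 to 0.67, so the C1q genes lay within the range of their neighbours. The level per length of *C1qa* was 1.13 times that of *C1qb* in *Foxo1f/f* against 1.17 times in *Foxo1d/d*. Beside them, 11 of the 12 macrophage markers were also above 0 on the log2 scale, with a median of 0.18 and none at 1.5-fold. The summed macrophage markers stood at 765 CPM in *Foxo1f/f* against 882 in *Foxo1d/d*, with *Lyz2* the largest part (243 and 293). Their part in the C1q values was not tested.

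The C1 proteases are encoded by *C1ra* and *C1s*. *C1s* had the highest level per length of all 52 members, 187 in *Foxo1f/f* against 180 in *Foxo1d/d*, from mean counts of 15258 and 15329. *C1ra* stood at 52.1 and 53.1 per length. Neither protease gene differed by more than 1.04-fold. *C4b*, the C4 gene cleaved by C1s, had mean counts of 4221 and 4131.

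*C2*, which supplies the protease of the classical C3 convertase, was the exception in this arm. It averaged 951 counts in *Foxo1f/f* against 1680 in *Foxo1d/d*, 1.69-fold higher (1.62 to 1.77). The level per length of *C2* was 0.331 of that of *C4b* in *Foxo1f/f* against 0.598 in *Foxo1d/d*, so *C2* was higher relative to *C4b* in *Foxo1d/d*. The adjacent gene *Cfb* encodes factor B, the counterpart of C2 in the alternative pathway. *Cfb* had 1470 counts in *Foxo1f/f* against 2202 in *Foxo1d/d*, 1.44-fold higher (1.38 to 1.49), just short of the threshold. These neighbours were thus both higher, while the 9 measured genes that flank them had log2 ratios from -0.26 to 0.16.

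The lectin pathway proteases were low and differed by less than 1.5-fold. *Masp1*, the more abundant, had a level per length of 1.42 in *Foxo1f/f* against 1.22 in *Foxo1d/d*, from mean counts of 366 and 328. *Masp2* had mean counts of 18 and 13.3, and 54.9% of its exon length overlaps *Tardbp* on the opposite strand.

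*C3*, on which all pathways converge, averaged 15289 counts in *Foxo1f/f* against 17924 in *Foxo1d/d*, 1.12-fold higher (1.11 to 1.14). Its level per length, 114 and 128, was second to that of *C1s*. *Cfp*, which encodes properdin, the stabiliser of the alternative convertase, had 968 counts in *Foxo1f/f* against 1074 in *Foxo1d/d*. *C3*, *Cfb* and *Cfp* were thus all higher in *Foxo1d/d*, each by less than 1.5-fold. The receptors of the C3a and C5a fragments were nearly equal between genotypes. *C3ar1*, the more abundant per length, had mean counts of 678 and 695, and *C5ar1* had 273 and 312.

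The terminal components assemble the membrane pore, and here the members went in different directions. *C7*, which anchors the growing complex in the membrane, averaged 120 counts in *Foxo1f/f* against 55.7 in *Foxo1d/d*, 2.26-fold lower (1.87 to 2.73). *Hc*, the mouse gene of C5, had 35.0 and 19.0 counts, 1.92-fold lower (1.38 to 2.70). Both were thus lower in *Foxo1d/d*, from low counts. *C6* and *C9* were above their *Foxo1f/f* values by less than 1.5-fold, with 69.7 and 97.0 counts for *C6* and 32.3 and 47.0 for *C9*. *C8g*, a chain of C8 and the terminal component with the highest level per length, had 188 counts in *Foxo1f/f* against 186 in *Foxo1d/d*. The summed CPM of the 5 terminal genes were 17.0 and 14.8. Per length, *C8g* stood at 4.81 and 4.57, which is little beside the 114 and 128 of *C3*.

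The regulators restrain complement at cell surfaces or in the fluid. *Cd55* encodes the decay-accelerating factor, which breaks up C3 convertases on the cell's own membrane. It averaged 3460 counts in *Foxo1f/f* against 2015 in *Foxo1d/d*, 1.79-fold lower (1.74 to 1.85). *Cd59a*, which blocks the membrane pore, had 1352 and 1419 counts, a 1.01-fold difference with an interval of 0.963 to 1.05. RNA of the convertase regulator was therefore lower, and that of the pore inhibitor was equal within counting error. Per length *Cd55* stood at 27.3 and *Cd59a* at 28.6 in *Foxo1f/f*, against 15.2 and 28.7 in *Foxo1d/d*. *Cfi*, the protease that inactivates C3b, had 325 and 487 counts, 1.44-fold higher (1.32 to 1.56).

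**Figure D2:**
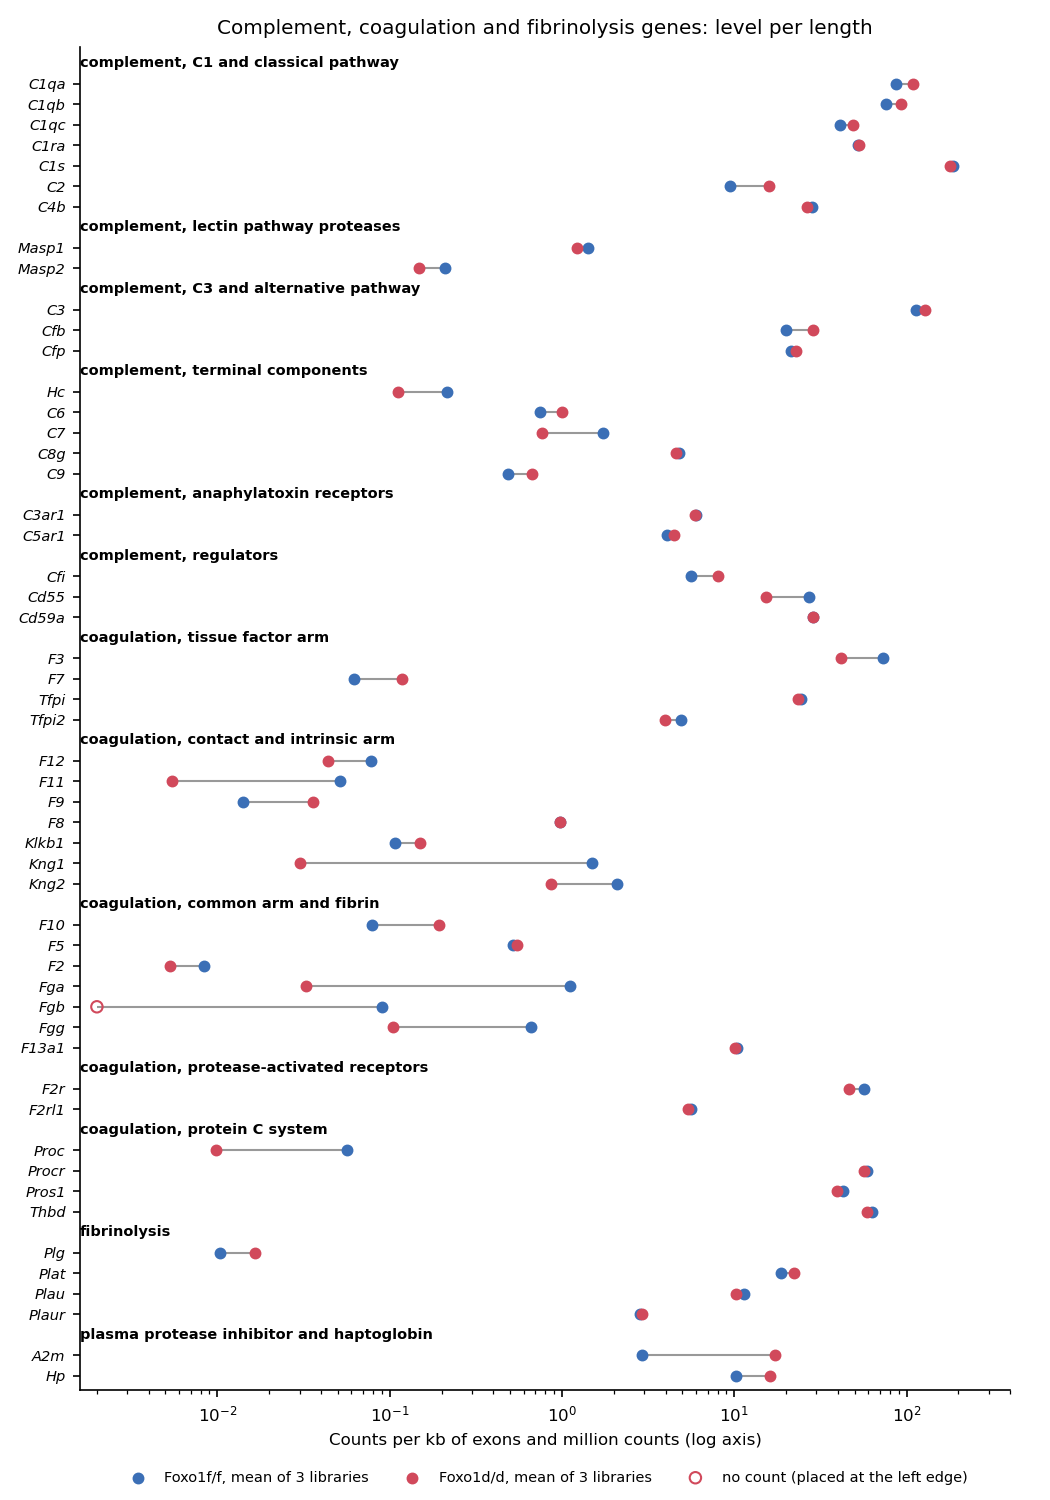
Level per length (CPM per kilobase of exon, log axis) of each member, ordered by role, with *Foxo1f/f* in blue and *Foxo1d/d* in red, each point the mean of 3 libraries. *C1s*, *C3*, *C1qa* and *C1qb* lead in *Foxo1f/f*, and the longest lines belong to *Kng1*, *Fga*, *Fgb* and other genes of low level; *Fgb* had no count in *Foxo1d/d* and is drawn as an open circle at the left edge.

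Tissue factor, encoded by *F3*, starts coagulation by binding factor VII. *F3* averaged 4819 counts in *Foxo1f/f* against 2861 in *Foxo1d/d* uteri, 1.76-fold lower (1.71 to 1.81). Its level per length, 73.0 and 41.5, was the highest in the coagulation group in *Foxo1f/f* but lay below *Thbd*, *Procr* and *F2r* in *Foxo1d/d*. *Tfpi*, the inhibitor of the complex of tissue factor and factor VII, was nearly the same in both genotypes, with 3479 and 3478 counts. The ratio of *F3* to *Tfpi* per length was accordingly 2.99 in *Foxo1f/f* against 1.78 in *Foxo1d/d*. *Tfpi2*, a relative of *Tfpi*, had 223 and 189 counts. *F7*, the partner of tissue factor, had only 9 and 18 counts summed over the 3 libraries of each genotype.

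The contact system consists of factor XII, prekallikrein and the kininogens, from which bradykinin is released. *Kng1* averaged 127 counts in *Foxo1f/f* against 2.67 in *Foxo1d/d*, 49.6-fold lower (24.9 to 116). *Kng2* had 149 and 64.3 counts, 2.41-fold lower (2.03 to 2.87). Both kininogen genes were thus lower, and *Kng1* was close to the lower limit of counting in *Foxo1d/d* uteri, with 380 summed counts in one genotype and 8 in the other. Only 4 of the 15702 genes had a lower log2 ratio than *Kng1*. Per length, *Kng1* stood at 0.717 of *Kng2* in *Foxo1f/f* and at 0.0349 of it in *Foxo1d/d*. The longest transcripts of this pair are 93.4% identical over 2199 aligned bases, so reads shared between them may have been assigned to either gene, and the split between *Kng1* and *Kng2* is uncertain. Of the other contact and intrinsic factors, *Klkb1* (prekallikrein) had 14.7 and 21.3 counts, with a counting interval that includes no difference, and *F8* (factor VIII, an endothelial product) had 253 and 262. *F12*, *F11* and *F9* stayed under a mean count of 10, with summed counts of 12, 9 and 3 in *Foxo1f/f* and 7, 1 and 8 in *Foxo1d/d*.

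Fibrinogen is assembled from the products of *Fga*, *Fgb* and *Fgg*, which lie side by side on chromosome 3. *Fga* averaged 87.3 counts in *Foxo1f/f* against 2.67 in *Foxo1d/d*, 34.2-fold lower (17.1 to 80.0). *Fgg* had 36.0 and 6.00 counts, 6.26-fold lower (3.78 to 11). *Fgb*, which is below the count minimum, had 27 summed counts in *Foxo1f/f* against 0 in *Foxo1d/d*. By its counting interval *Fgb* was at least 7.13-fold lower, and against a floor of 3 counts over the genotype it was 9.39-fold lower. All chains of fibrinogen were therefore lower in *Foxo1d/d*, from low levels in *Foxo1f/f* of 1.11, 0.658 and 0.0904 per length for *Fga*, *Fgg* and *Fgb*. The level of *Fga* was 1.69 times that of *Fgg* in *Foxo1f/f* against 0.309 times in *Foxo1d/d*, so the chains did not differ in step.

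The promoters of the fibrinogen genes are shown because these neighbours were lower together. Each run is the RefSeq window on GRCm38.p6 from 250 bases before to 50 bases after the gene's start, 5′ to 3′ on the gene's strand, at chr3:83007474-83007773 (plus strand) for *Fgg*, chr3:83025903-83026202 (plus strand) for *Fga* and chr3:83049814-83050113 (minus strand) for *Fgb*. Capitals mark matches on either strand to TGTTTAC (a form of the forkhead motif), TTCNNNGAA (the STAT motif) or GTTAAT (an arm of the palindromic HNF1 motif). No matches overlapped.
Fgg: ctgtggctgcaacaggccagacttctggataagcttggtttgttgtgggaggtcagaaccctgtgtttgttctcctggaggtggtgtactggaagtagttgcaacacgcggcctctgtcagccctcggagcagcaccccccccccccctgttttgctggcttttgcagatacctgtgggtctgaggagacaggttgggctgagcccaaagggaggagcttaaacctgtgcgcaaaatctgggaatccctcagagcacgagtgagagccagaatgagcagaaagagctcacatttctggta
Fga: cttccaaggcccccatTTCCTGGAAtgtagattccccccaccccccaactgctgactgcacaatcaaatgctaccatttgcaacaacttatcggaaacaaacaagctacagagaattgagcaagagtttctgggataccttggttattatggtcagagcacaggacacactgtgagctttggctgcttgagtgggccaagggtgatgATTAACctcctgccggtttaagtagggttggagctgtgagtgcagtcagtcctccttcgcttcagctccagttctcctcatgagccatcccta
Fgb: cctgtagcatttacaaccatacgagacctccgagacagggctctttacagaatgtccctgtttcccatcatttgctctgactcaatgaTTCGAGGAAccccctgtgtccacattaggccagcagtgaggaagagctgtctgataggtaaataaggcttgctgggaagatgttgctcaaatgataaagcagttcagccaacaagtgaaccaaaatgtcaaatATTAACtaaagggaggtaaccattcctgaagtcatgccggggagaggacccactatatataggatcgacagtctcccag
*Fga* held TTCCTGGAA starting 234 bases before the gene's start and ATTAAC starting 43 bases before it. *Fgb* held TTCGAGGAA at 162 bases and ATTAAC at 29 bases before its start. *Fgg* held none of these exact motifs in this window, and none of these windows held TGTTTAC on either strand. Other forms of the forkhead motif were not searched, so the windows are not shown to lack one. Among all 32851 promoter windows of this length, 3.65% held the forkhead motif, 8.30% the STAT motif and 7.10% the HNF1 arm. For 37 of the 52 members 43 windows were matched, and in at least 1 window 2 of these members held the forkhead motif (*F11* and *Klkb1*), 7 the STAT motif and 9 the HNF1 arm. These are counts of genes and are not comparable with the shares of single windows. A match describes the letters and is no measurement of binding.

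The neighbours of the fibrinogen and kininogen genes were examined in RefSeq gene order. *Plrg1*, next to *Fgb*, had a log2 ratio of -0.02, and *Lrat*, next to *Fgg*, had -0.89. The 8 measured neighbours of the fibrinogen genes lay between -0.89 and 0.46, and each fibrinogen gene lay below all of them. On chromosome 16, *Kng2* and *Kng1* are flanked by *Hrg*, *Fetub* and *Ahsg*, other genes of plasma proteins with mean counts under 10, and by *Eif4a2*, which had a log2 ratio of -0.02. *Adipoq*, 3 genes beyond *Kng1*, was in the opposite direction at 1.82.

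**Figure D3:**
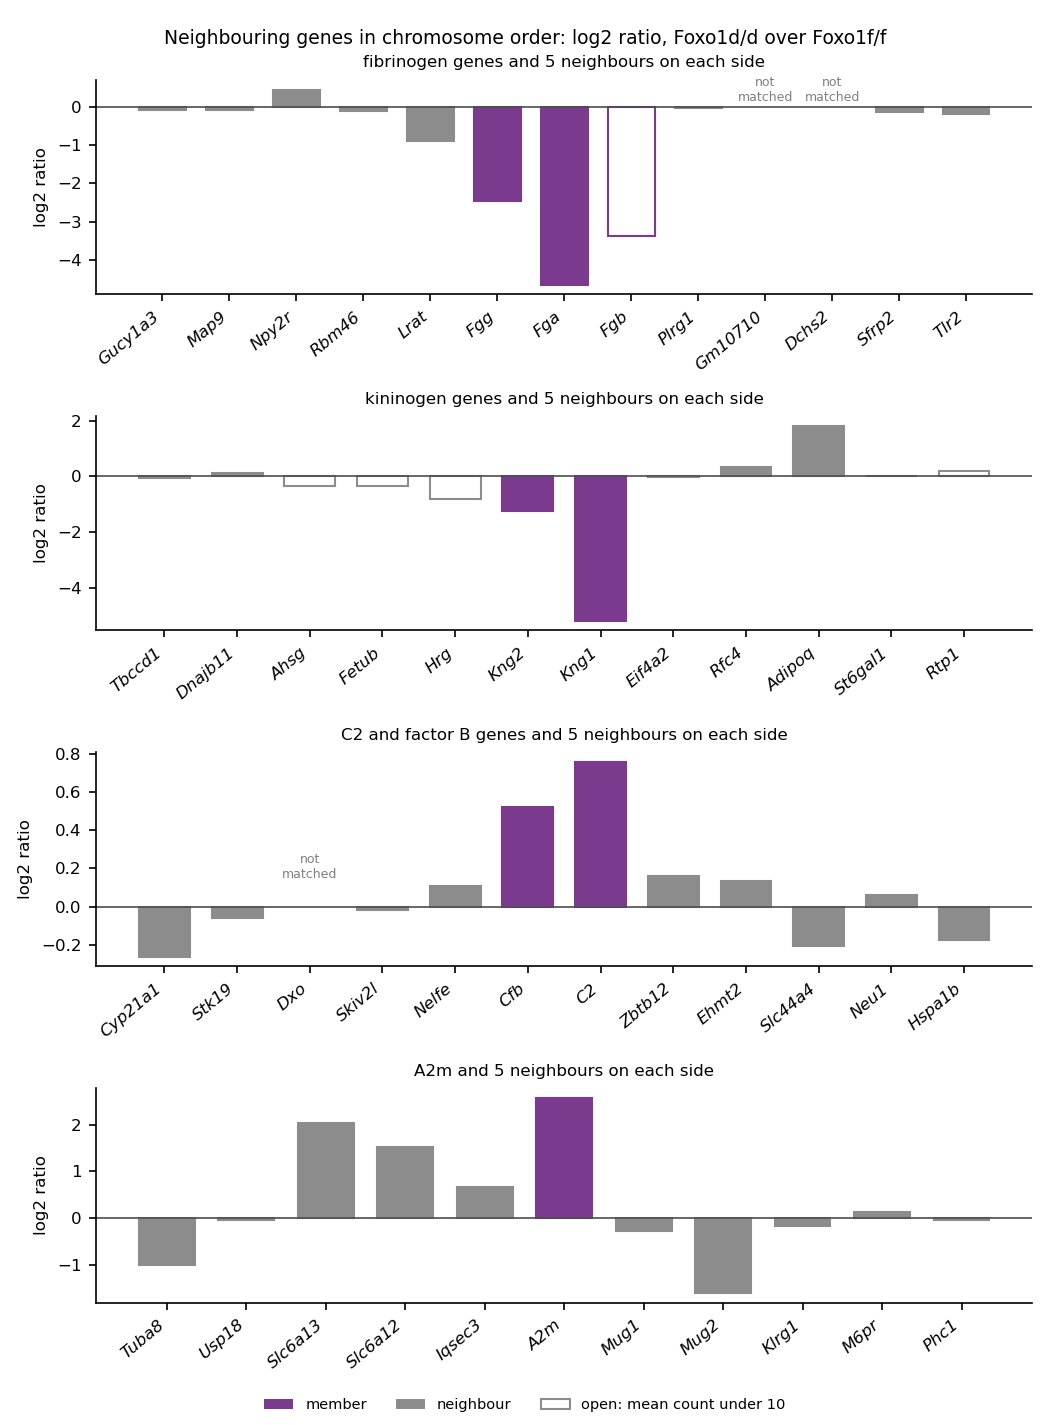
Log2 ratio, *Foxo1d/d* over *Foxo1f/f* (vertical axes, pseudocount of 1) for the fibrinogen, kininogen, *C2* and *Cfb*, and *A2m* loci with 5 protein-coding neighbours on each side in chromosome order (horizontal axes); members are purple, neighbours grey, and open bars have a mean count under 10. The fibrinogen and kininogen genes stand below their neighbours, and near *A2m* stand *Slc6a13* at 2.03 and *Slc6a12* at 1.52.

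In the rest of the common arm, *F10*, the protease that cleaves prothrombin, averaged 5.67 counts in *Foxo1f/f* against 14.3 in *Foxo1d/d*, 2.42-fold higher (1.35 to 4.53). With 17 and 43 summed counts it lay exactly at the count minimum of 10. *F5*, the cofactor of factor X, had 101 and 112 counts, and *F2* (prothrombin) had 3 and 2 summed counts. *F13a1*, which crosslinks fibrin and has the highest level per length in this arm, had 1819 counts in *Foxo1f/f* against 1847 in *Foxo1d/d*. The abundant gene of this arm was thus equal between genotypes within counting error, and the genes that differed were scarce.

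The thrombin receptor gene *F2r* had 4917 counts in *Foxo1f/f* against 4189 in *Foxo1d/d*, 1.22-fold lower (1.20 to 1.25), and *F2rl1*, which encodes a receptor cleaved by trypsin-like proteases, had 401 and 404. The protein C pathway limits clotting on endothelium. *Thbd* (thrombomodulin), its most abundant gene per length, had 6110 and 5947 counts, 1.07-fold lower (1.05 to 1.09). *Procr*, the protein C receptor, and *Pros1*, the cofactor protein S, likewise had nearly the same counts, 3112 and 3115 for *Procr* and 4583 and 4416 for *Pros1*. *Proc* (protein C) had 11 and 2 summed counts. All 8 endothelial markers were on the lower side by a little, with log2 ratios from -0.41 to -0.05 and none at 1.5-fold. Their sum was 1901 CPM in *Foxo1f/f* against 1633 in *Foxo1d/d*, with *Pecam1* the largest part (373 and 319). The part of the endothelium in these values was not tested.

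Fibrinolysis was represented by both plasminogen activators, the urokinase receptor and plasminogen. *Plat*, the tissue-type activator, averaged 3027 counts in *Foxo1f/f* against 3792 in *Foxo1d/d*, 1.20-fold higher (1.17 to 1.23). *Plau*, the urokinase-type activator, was slightly lower, with 702 and 663 counts. Per length, *Plat* stood at 1.64 times *Plau* in *Foxo1f/f* against 2.17 times in *Foxo1d/d*. *Plaur*, the receptor of urokinase, had 195 and 208 counts, and *Plg* (plasminogen) had 3 and 5 summed counts. No fibrinolysis gene differed by 1.5-fold among the 3 that reached the count minimum.

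The remaining members are plasma proteins of the acute phase and protease control. *A2m*, the protease trap alpha-2-macroglobulin, averaged 532 counts in *Foxo1f/f* against 3316 in *Foxo1d/d*, 5.98-fold higher (5.67 to 6.31). Only 12 of the 15702 genes had a higher log2 ratio. *Hp*, the haemoglobin scavenger haptoglobin, had 428 and 704 counts, 1.58-fold higher (1.47 to 1.69). Both were higher in *Foxo1d/d*, and *A2m* replaced *Hp* as the member with the higher level per length, with 2.90 against 10.2 in *Foxo1f/f* and 17.3 against 16.1 in *Foxo1d/d*. Next to *A2m* on chromosome 6, its relatives *Mug1* and *Mug2* were not higher, with 22 and 18.7 counts for *Mug1* and 22.3 and 7 for *Mug2*, while *Slc6a13* on the other side had 27.0 and 119.

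**Figure D4:**
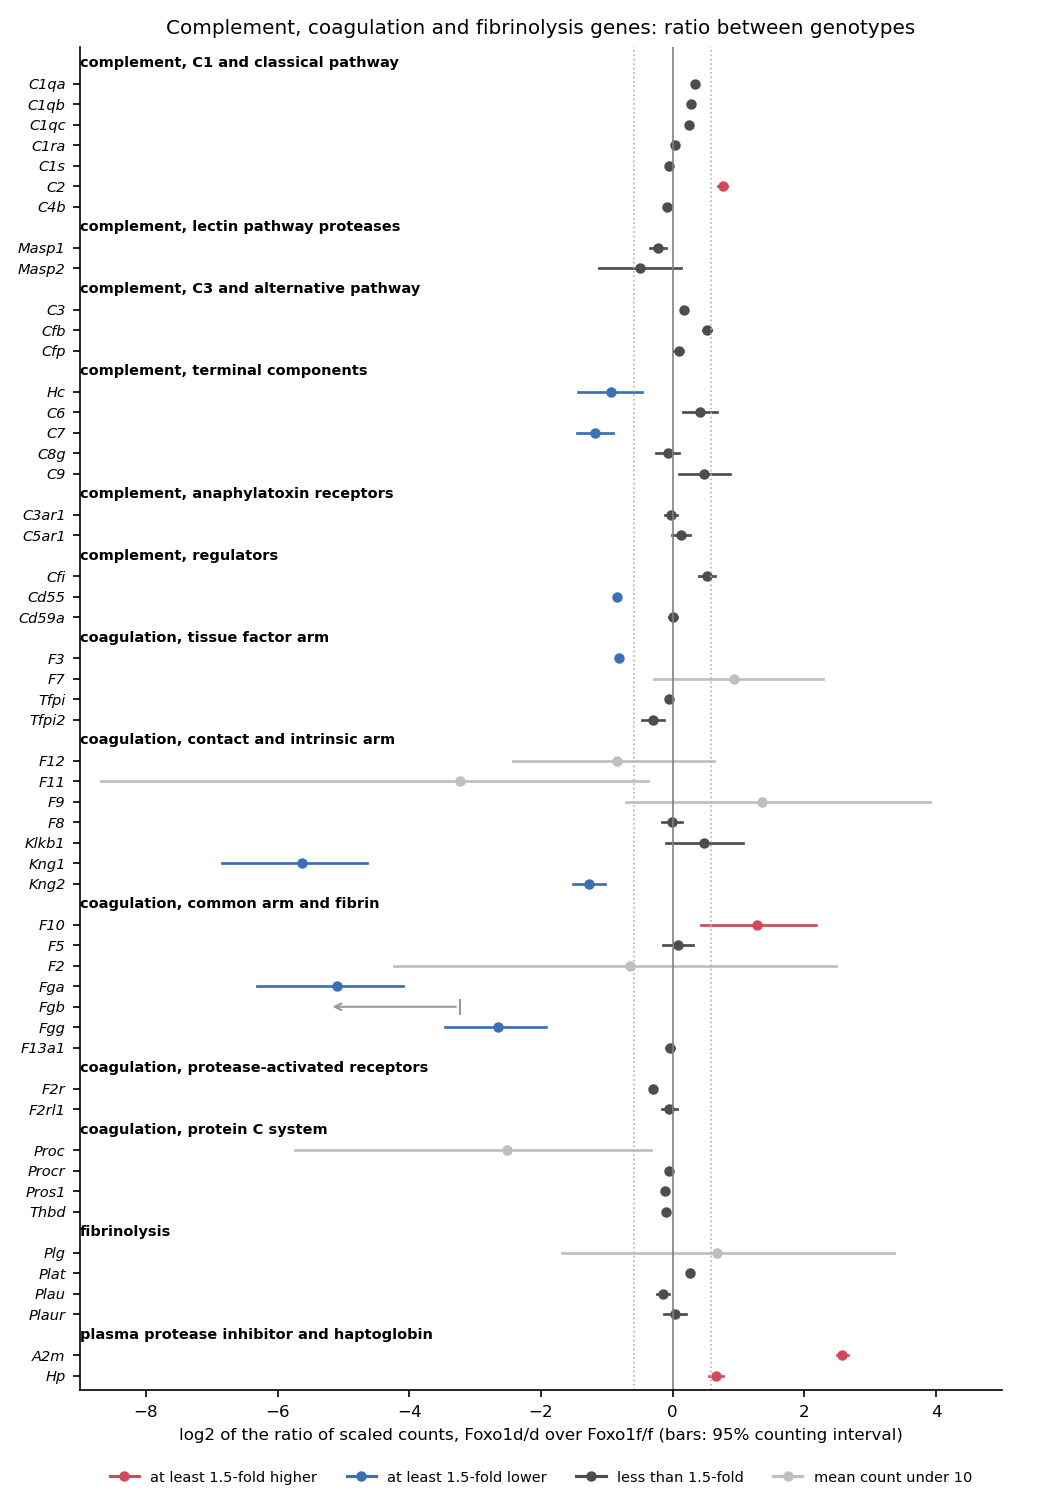
Log2 of the ratio of scaled counts, *Foxo1d/d* over *Foxo1f/f*, without a pseudocount (horizontal axis), for each member by role, with bars for the 95% counting interval. Members at least 1.5-fold higher are red, those lower are blue, those under 1.5-fold dark grey and those with a mean count under 10 light grey; the tick and arrow give the bound of *Fgb*, and dotted lines mark 1.5-fold.

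The 12 higher or lower members fell into both cascades and among the plasma proteins. Of the 22 complement members, all of which reached the count minimum, 1 was higher and 3 were lower, beside 5.45% and 3.51% of the 15702 genes, and their median log2 ratio was 0.06. Of the 24 coagulation members, 17 reached it, and their median log2 ratio was -0.10. Of these, 1 was higher and 5 were lower, beside the same 5.45% and 3.51%. Among them, *F10*, *Kng1*, *Fga* and *Fgg* reached the count minimum only through the genotype in which they were higher. The summed complement members took 2134 CPM in *Foxo1f/f* against 2229 in *Foxo1d/d*, and the summed coagulation members 1158 and 988. The coagulation total was thus lower in *Foxo1d/d*, mainly through *F3* at 184 and 105 and *F2r* at 188 and 154 CPM.

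Further genes of the same cascades were described from lists of 83 symbols, of which 80 were found and 60 reached the count minimum. Of these, 4 were higher and 6 lower by at least 1.5-fold, beside 5.45% and 3.51% of the 15702 genes, and their median log2 ratio was -0.03. In complement, *Cfd*, the protease that activates factor B, had 156 counts in *Foxo1f/f* against 594 in *Foxo1d/d*, 3.66-fold higher (3.30 to 4.06). RNA of this activating protease was thus higher, beside its substrate gene *Cfb* at 1.44-fold higher. *C4bp*, a cofactor against C4b, was 1.53-fold higher (1.24 to 1.89) but under the threshold with a pseudocount of 5 or centred ratios, and *Cfhr2* was 1.58-fold lower with an interval of 0.951 to 2.68 that includes no difference.

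Among the other coagulation genes, *Adamts13*, which cleaves von Willebrand factor, was 2.02-fold lower (1.42 to 2.92), from 31.7 and 16.3 counts. *Fgl1*, a fibrinogen-like gene, was 2.11-fold lower (1.41 to 3.23), from 25 and 12.3 counts. *Klk1*, the tissue kallikrein that releases kinin from kininogen, was 1.77-fold higher (1.27 to 2.48), with 19.0 counts in *Foxo1f/f* against 35.0 in *Foxo1d/d*. *Klk1* and the kininogens it cleaves therefore differed in opposite directions. *Hpx* (hemopexin) was 2.12-fold lower (1.88 to 2.38), against the higher *Hp*, and *Mug2* was 3.33-fold lower (2.01 to 5.72). The identity of *Klk1* and *Mug2* to their relatives was not measured, so reads shared with those cannot be judged. Of the 12 serpins of the cascades, 8 reached the count minimum, and 1 differed by 1.5-fold. This was *Serpina1e*, with 34.7 and 272 counts, 7.53-fold higher (6.13 to 9.33), which belongs to a family of near-identical genes that may share reads.

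The members were set beside 14 lists of cell type markers. Of the 7 hepatocyte markers, 5 had a mean count under 10, including *Alb* with 6.00 counts in *Foxo1f/f* against 4.67 in *Foxo1d/d*. The exceptions were *Ttr*, which was lower in *Foxo1d/d*, with 114 and 47.3 counts, and the transferrin gene *Trf*, with 1710 and 1691 counts. *Trf* led the list in a sum of 70.6 and 64.5 CPM. Per length, *Alb* stood at 0.0981 and 0.0731, *Kng1* at 1.49 and 0.0301, and *Fga* at 1.11 and 0.0325. The adipocyte markers were higher in 6 of 7, with a median log2 ratio of 1.82 and a sum of 68.5 and 122 CPM, led by *Lpl* (57.5 and 81.9). *Adipoq* had 53.7 and 201 counts, and *Cfd*, which adipocytes secrete, was higher along with them. The share of adipocytes in the *Cfd* or *Hp* values was not tested.

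Of the gland markers, *Spink3* and *Prss29* were lower, at log2 ratios of -4.70 and -4.46, close to *Kng1* at -5.18 and *Fga* at -4.65, while *Foxa2* stood at 0.04, and *Lif* at 0.99 and the row *Il8* (*Cxcl15*) at 0.96 were higher. The gland markers thus did not differ in one direction. The list summed to 700 CPM in *Foxo1f/f* against 128 in *Foxo1d/d*, most of it from *Prss29* (526 and 23.9). The part of the glands in the kininogen and fibrinogen values was not tested. Of 9 epithelial markers 1 was higher (*Krt19*), with sums of 794 and 954 led by *Cdh1*. None of the stromal, smooth muscle or mesothelial markers reached 1.5-fold, with median log2 ratios of -0.05, -0.27 and 0.23 and sums of 14816 and 14768, 7088 and 5727, and 210 and 194 CPM, led by *Col3a1*, *Myh11* and *Wt1*.

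Among blood cells, the T and NK cell markers were higher in 6 of 9 (sum 78.0 and 117, led by *Ncr1*) and the dendritic cell markers in 3 of 7 (sum 223 and 330, led by *H2-Ab1*). The neutrophil list had 1 of 3 measurable markers higher (sum 3.15 and 4.76, led by *Retnlg*), and the platelet list none of 3 (sum 20.3 and 23.6, led by *Itga2b*). The globin genes *Hba-a1*, *Hba-a2*, *Hbb-b1* and *Hbb-b2* were listed at 0 in both genotypes, while the beta-globin row *Beta-s* (*Hbb-bs*) had 1087 counts in *Foxo1f/f* against 2528 in *Foxo1d/d*, 2.23-fold higher (2.14 to 2.32). *Alas2*, the other red cell marker that reached the count minimum, had 147 and 403 counts, and the list summed to 47.4 and 108 CPM, led by *Beta-s*. The part of these cells in the complement values was not tested.

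**Figure D5:**
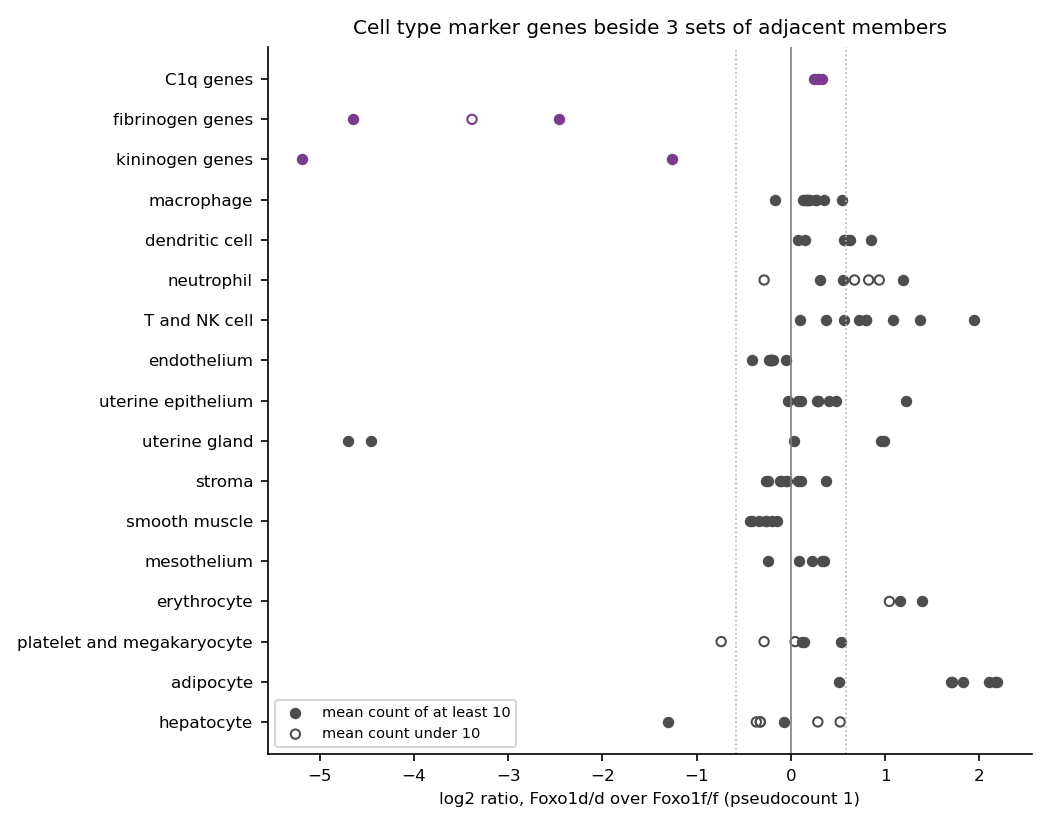
Log2 ratios, *Foxo1d/d* over *Foxo1f/f* (horizontal axis, pseudocount of 1) for each gene of the 14 marker lists that had a count and, in purple, for the C1q, fibrinogen and kininogen members; each point is a gene, open where the mean count is under 10. The C1q genes lie within the range of the macrophage markers, and the fibrinogen and kininogen genes overlap in range with *Spink3* and *Prss29* of the gland list.

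Some counts depend on how shared reads were assigned. The row named *C1s* was matched to *C1s1* in RefSeq by its older symbol. The longest transcripts of *C4b* and *C4a* are 96.1% identical, those of *C1ra* and *C1rb* 98%, those of the C1s genes *C1s1* and *C1s2* 95.9%, those of *Cd55* and *Cd55b* 93.5% and those of *Cd59a* and *Cd59b* 89.6%, so the values of these members are uncertain to that extent. In the GENCODE annotation a joint gene model, *Gm20547*, covers 42.8% of the exon length of *C2* and 79.5% of that of *Cfb*, and *Gm45753* covers 43.2% of *Klkb1*.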

How the data were processed

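The 6 uterine libraries were analysed from 1 deposited table of 23420 genes. The authors aligned trimmed read pairs with STAR, discarded duplicates by Picard, obtained a count per RefSeq gene from HTSeq and ran edgeR on the genotypes. Versions, and whether counting used strand, are not given in the sources used here. The study's methods name mm10 and the submitters' processing notes mm9, and the table holds no positions. Gene order and promoters therefore come from RefSeq on GRCm38.p6, and exon lengths and transcripts from GENCODE M21, matched by gene ID or symbol. After values were seen, 5 listed genes were matched to rows under other symbols: *C1s2* (*Gm5077*), *Adgre1* (*Emr1*), *Cxcl15* (*Il8*), *Hbb-bs* (*Beta-s*) and *Tf* (*Trf*).

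The authors deposited the mean raw count per genotype, and every mean is a whole number after multiplication by 3. The deposited columns of the authors' comparison hold a signed fold change (a score), an average log2 CPM, and a p-value with its FDR. None of these was used.

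The log2 ratio was computed from the mean counts plus 1, each divided by its genotype's total, and folds without the pseudocount. Counting intervals were taken from sums of 78375043 and 81773890 counts. They cover neither differences between pools nor the error of scaling by totals. Python 3.11.15, pandas 2.3.3, scipy 1.17.1 and Biopython 1.88 were used, and the steps were tested on simulated data. The members and lists were chosen with earlier results of these data known. The rule named members and other cascade genes that averaged 10 counts or more and differed by 1.5-fold or more, and the member of highest level per length in each of the 13 roles. Of the other cascade genes that met it, 9 of 10 are described. Other members, neighbouring genes, pairs compared per length and motifs were chosen after values were seen. Alternatives were pseudocounts of 0.1 and 5, ratios centred on the median gene, totals without the 100 most abundant genes, other count minimums and a 2-fold threshold.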

Additional observations from a re-analysis of the deposited data

How the results depend on the processing

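The 4 higher and 8 lower members were the same genes with pseudocounts of 0.1 and 5, with ratios centred on the median gene and with totals that leave out the 100 most abundant genes. With a count minimum of 50 in place of 10, 3 members were higher and 5 lower, since fewer genes were counted. At 2-fold, 2 members were higher and 5 lower, by the stricter threshold itself. Without a minimum, 6 were higher and 12 lower, and the genes added had mean counts under 10. The shares over all genes were not taken with a minimum of 50 or with none, so these counts stand without a comparison. The median log2 ratio of the members ranged from -0.06 with centred ratios to -0.02 with a minimum of 50. *Foxo1* stayed between -1.52 and -1.50 under every pseudocount and scaling. Of 220 ratios of 55 named genes, 214 lay within the counting interval of the main value and no gene that was at least 1.5-fold higher or lower changed sign. Among the others, *Kng1* moved to -4.16, *Fga* to -3.65 and *Fgb* to -1.55 with a pseudocount of 5, which shrinks ratios of scarce genes, and *C1s* and *C3* moved by the centring.

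Of the other cascade genes, 4 were higher and 6 lower; with a pseudocount of 5 these were 3 and 5, without *C4bp* and *Cfhr2*, and with centred ratios 3 and 6, without *C4bp*. These alternatives for the other cascade genes were chosen after the data were seen.

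No paired analysis was possible because the table gives genotype means and no single libraries. For the same reason the fits without each library were not run. Depth limits *F7*, *F12*, *F11*, *F9*, *F2*, *Fgb*, *Proc* and *Plg*, whose mean counts were under 10.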
